A study of Mus musculus with 5 samples.

Results

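Ribosomal protein genes and their pseudogene copies were followed in livers of mouse embryos at stage E18.5. The members were the genes whose symbol starts with Rpl, Rps or Rplp and a number, leaving out the Rps6k kinases and Rps19bp1, and 241 of the 23022 genes of the comparison met this rule. Of these, 76 are main ribosomal protein genes, 14 are paralogs or retrogene copies named without a suffix, and 151 carry -ps, the suffix of a pseudogene copy. The rule used names only and no measured value.

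Poly(A)-selected RNA was sequenced from 5 libraries. The 4N group held 3 livers from Hhex knockout embryos that had received tetraploid embryonic stem cells marked by td-Tomato as blastocysts, and Hhex is a homeobox gene needed for liver formation. The WT group held 2 livers from normal embryos. The groups differed at once in ploidy, cell origin, Hhex genotype of the host and manipulation, and these cannot be told apart. The share of host cells left in the 4N livers is not given in the sources used here, nor whether the livers of a group came from separate litters, so the p-values measure the spread between these samples only. The data used were a comparison of both groups made by the authors, with no value for a single library among the data analysed here, so each library's depth is unknown.

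Each ribosome carries 1 copy of nearly every ribosomal protein, and the genes of the small and the large subunit are therefore usually transcribed in step. Their short, abundant mRNAs have often been copied back into the genome, so that mammals hold many intronless processed pseudogenes beside each intron-bearing parent gene. A sequencing read from such a family can match the parent and several copies, and which row it is counted in can then turn on a few bases.

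The copies on which the results turn differed from their parents at few positions. Stretches of 90 bases of coding sequence, chosen to hold the most differing positions, are given from GENCODE M21 transcripts (GRCm38, transcript strand). Only coding sequence was compared, and the stretches do not show every position at which a copy differs. Whether these bases decided the row in which a read was counted was not tested. Capitals mark positions at which the members shown differ, and bases are counted from the first base of the parent's coding sequence. The first set, bases 1 to 90, is Rps2 on chromosome 17, a small subunit protein of the mRNA entry site, and its copy on chromosome X.
Rps2: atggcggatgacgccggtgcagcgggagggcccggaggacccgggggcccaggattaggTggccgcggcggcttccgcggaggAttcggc
Rps2-ps13: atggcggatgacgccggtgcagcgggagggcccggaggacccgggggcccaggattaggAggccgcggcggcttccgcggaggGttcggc

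The small subunit gene Rps3a1 on chromosome 3 is shown from base 579 to base 668 with its retrogene copies on chromosomes 14 and 13.
Rps3a1: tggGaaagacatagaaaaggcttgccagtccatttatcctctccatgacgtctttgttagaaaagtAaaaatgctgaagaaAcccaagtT
Rps3a2: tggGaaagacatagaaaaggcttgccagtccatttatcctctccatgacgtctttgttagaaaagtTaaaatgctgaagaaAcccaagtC
Rps3a3: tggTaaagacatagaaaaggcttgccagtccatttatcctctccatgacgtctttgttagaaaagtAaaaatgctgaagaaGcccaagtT

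The large subunit gene Rpl34 on chromosome 3 and its copy on chromosome 6 are shown from base 43 to base 132, where 1 position differs.
Rpl34: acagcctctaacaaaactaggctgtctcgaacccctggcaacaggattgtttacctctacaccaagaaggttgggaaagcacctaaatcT
Rpl34-ps1: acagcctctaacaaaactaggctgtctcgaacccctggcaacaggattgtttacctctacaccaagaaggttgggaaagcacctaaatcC

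The small subunit genes Rps26 on chromosome 10 (bases 1 to 90) and Rps24 on chromosome 14 (bases 184 to 273) are shown with copies on chromosomes 8 and X.
Rps26: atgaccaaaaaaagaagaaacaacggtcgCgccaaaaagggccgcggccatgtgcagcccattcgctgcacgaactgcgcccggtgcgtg
Rps26-ps1: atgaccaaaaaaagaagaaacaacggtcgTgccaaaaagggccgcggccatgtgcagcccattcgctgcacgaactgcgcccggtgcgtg
Rps24: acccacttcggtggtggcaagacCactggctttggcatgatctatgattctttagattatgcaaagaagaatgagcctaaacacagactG
Rps24-ps3: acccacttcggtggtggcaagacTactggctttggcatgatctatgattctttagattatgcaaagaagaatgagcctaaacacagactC

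The last set is Rplp0 on chromosome 5, the scaffold of the ribosomal stalk, from base 214 to base 303, with the processed pseudogenes Gm8730 on chromosome 8 and Gm9625 on chromosome 13, which are copies of it that carry no -ps symbol.
Rplp0: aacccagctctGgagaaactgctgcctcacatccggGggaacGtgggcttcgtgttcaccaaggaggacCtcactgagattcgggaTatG
Gm8730: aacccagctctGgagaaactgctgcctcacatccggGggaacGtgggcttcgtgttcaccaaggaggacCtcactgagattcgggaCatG
Gm9625: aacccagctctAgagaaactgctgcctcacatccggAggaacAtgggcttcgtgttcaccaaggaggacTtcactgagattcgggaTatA

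Most main ribosomal protein genes were at similar levels in 4N and WT liver, while a handful of them stood far apart. Of the 76 main genes, 5 rose, 1 fell and 70 did not pass the authors' Wald test at an adjusted p under 0.05. Over all 23022 genes the share called was 15.3% in either direction, 7.94% higher and 7.41% lower, and among the 8656 genes averaging 1000 normalized counts or more, which 74 of the main genes reach, it was 22.2% (11.9% higher, 10.3% lower). The main genes' share of 7.89% was below both. Their median log2 fold change was 0.07, against 0.00 over all genes. By part of the ribosome, the medians were 0.06 for 30 small subunit genes, of which 1 rose, 0.10 for 43 large subunit genes, of which 4 rose, and -0.13 for the 3 stalk genes, of which 1 fell. Fold changes are given as 4N over WT throughout. Their direction was read from genes with all reads in 1 group, because the numerator is unnamed.

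Among the 70 main genes that were not called, the 95% interval lay within a 2-fold change in either direction for 63 and within a 1.5-fold change for 23. Rpl4, which lines the exit tunnel, had a fitted mean of 77755 normalized counts in 4N livers and 77347 in WT livers. Its log2 fold change was 0.01 (SE 0.19) per the authors' deposited table. Rps4x, an X-linked small subunit protein, stood at -0.08 (SE 0.20) and Rps3, a protein of the mRNA entry site, at 0.09 (SE 0.22) per the authors' deposited table. Rps19, the gene most often mutated in Diamond-Blackfan anaemia in humans, was at 0.54 (SE 0.22, adjusted p = 0.087) and Rps27 at -0.51 (SE 0.38) per the authors' deposited table, and neither passed. Fitted group means were computed from each gene's mean and fold change.

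**Figure D1:**
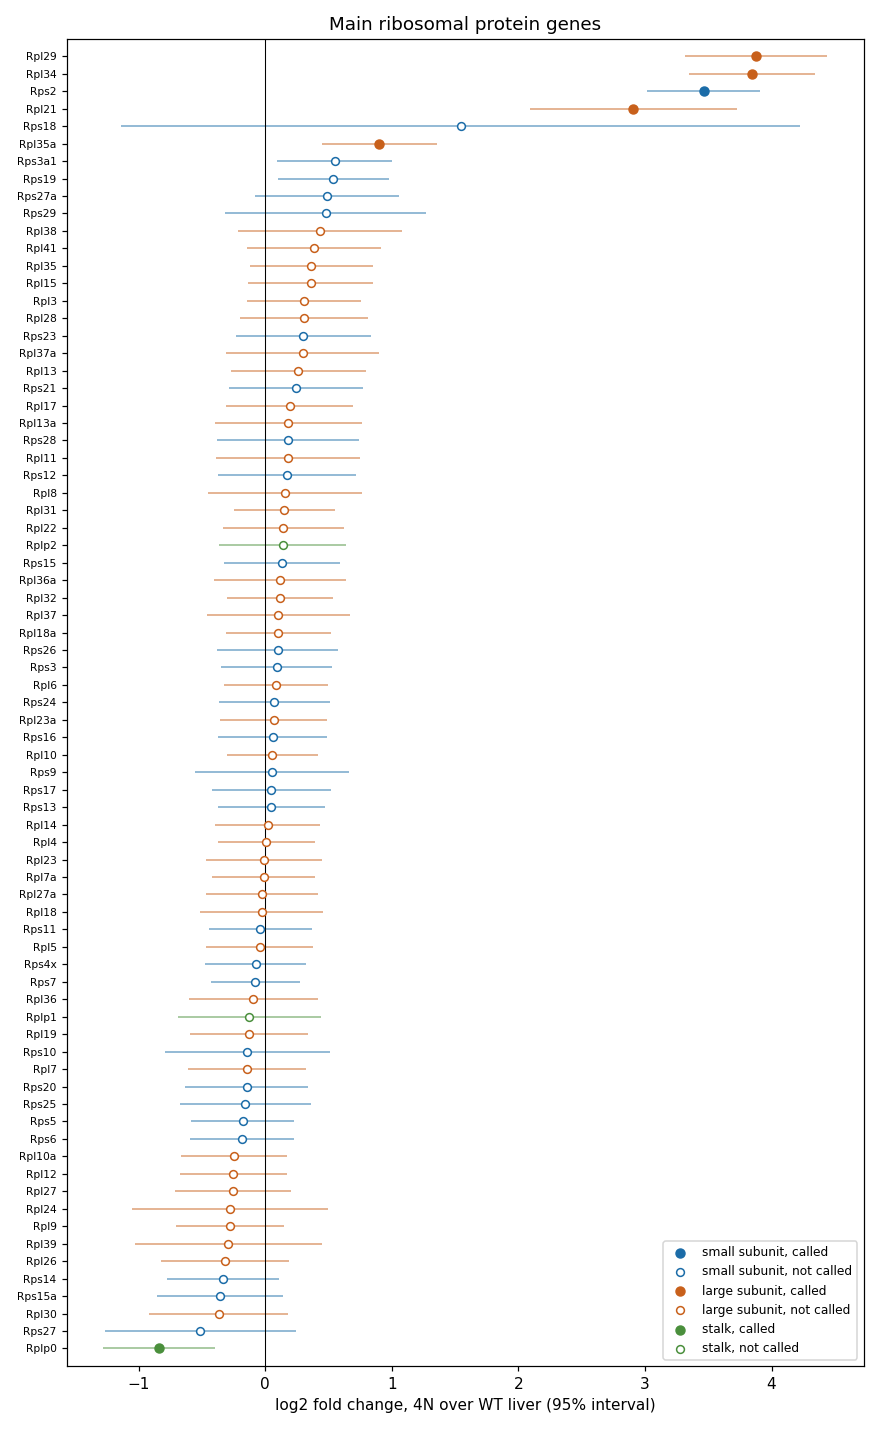
Log2 fold change of 4N over WT liver for main ribosomal protein genes, with 95% intervals from the authors' standard errors, coloured by part of the ribosome. Filled points passed the authors' test: 4 lie between 2.91 and 3.88, Rpl35a at 0.90 and Rplp0 at -0.84, while Rps18 has the widest interval.

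Among the 5 main genes that rose, 4 did so by more than 7-fold. Rps2 had a fitted mean of 57778 normalized counts in 4N livers and 5238 in WT livers. The log2 fold change of Rps2 was 3.46 (SE 0.23, adjusted p = 6.3e-49) per the authors' deposited table. Rpl34 had 11998 in 4N livers and 834 in WT livers, which is 3.85 on the log2 scale (SE 0.25, adjusted p = 2.6e-49) per the authors' deposited table. Rpl29, a large subunit protein on the ribosome surface, had 8641 in 4N livers and 588 in WT livers, and its log2 fold change was 3.88 (SE 0.29, adjusted p = 1.0e-38) per the authors' deposited table. Rpl21, also of the large subunit, had 5404 in 4N livers and 720 in WT livers, with 2.91 (SE 0.42, adjusted p = 2.2e-10) per the authors' deposited table. The next highest ratio among called main genes was that of Rpl35a, at 0.90.

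The remaining calls were smaller. Rpl35a, a large subunit gene also mutated in Diamond-Blackfan anaemia in humans, had a fitted mean of 15369 in 4N livers and 8238 in WT livers. Its log2 fold change was 0.90 (SE 0.23, adjusted p = 0.0014) per the authors' deposited table. Rplp0 had 38478 in 4N livers and 68888 in WT livers, and it fell by 0.84 (SE 0.22, adjusted p = 0.0023) per the authors' deposited table. Its stalk partners did not pass: Rplp1 was at -0.13 (SE 0.29) and Rplp2 at 0.14 (SE 0.26) per the authors' deposited table. Rps18, a protein of the subunit interface, had 9426 in 4N livers and 3237 in WT livers but a standard error of 1.37 on a log2 fold change of 1.54 per the authors' deposited table. That error was the largest of any main gene, and the median over all genes averaging 1000 or more was 0.24. Rplp0 lost its call when fold changes were recentred on secreted plasma proteins, which moves all of them up by 0.58. Of the 76 main genes, 49 were then called higher and 0 lower, against 29.4% of all genes higher and 3.7% lower. Among the 8656 genes averaging 1000 or more, 4405 were then called higher and 346 lower. The recentred median was 0.65 for the main genes and 0.60 for genes averaging 1000 or more.

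**Figure D2:**
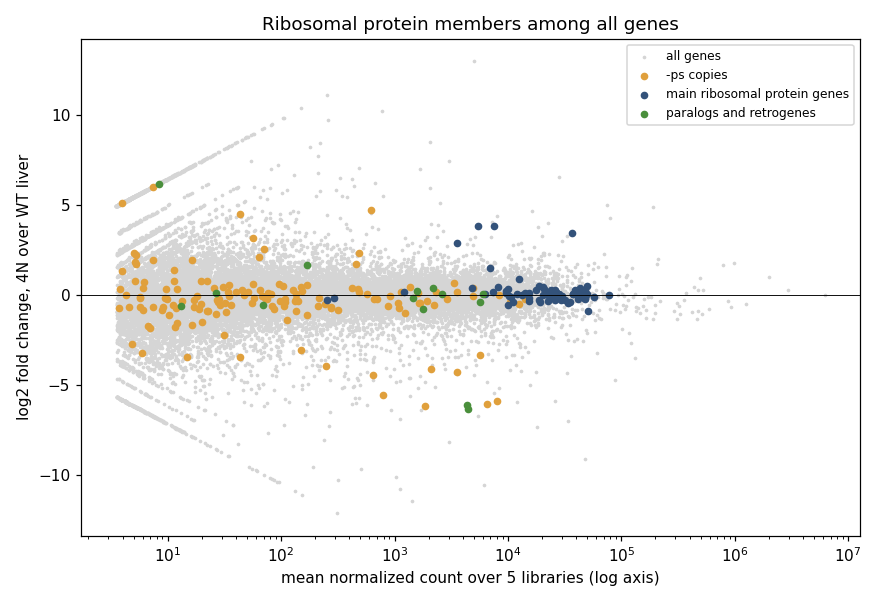
Mean normalized count over the 5 libraries on a log axis against the log2 fold change of 4N over WT liver, with all 23022 genes in grey. Most main ribosomal protein genes lie in a narrow band around 0 at high means, apart from the few called ones and Rps18 at 1.54, which was not called. The -ps copies spread up and down with several near -6.

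Pseudogene copies held calls in both directions, some of them steeper than those of any main gene. Of the 151 -ps copies, 9 rose, 11 fell and 131 did not pass, so 13.2% were called, against 15.3% of all genes. Among the 26 copies with a mean of at least 1000, 1 rose and 6 fell, which is 26.9%, against 22.2% of all genes at that level. The median log2 fold change of the copies was -0.20, against 0.00 over all genes. After recentring on secreted plasma proteins it was 0.38, against 0.58 over all genes, so the copies stayed below the background. The 70 copies with a mean under 50 had a median standard error of 1.37, and 3 of them were called. Summed over all copies, the fitted means were 94905 in 4N livers and 169914 in WT livers, a ratio of 0.559, whereas the main genes summed to 1936480 in 4N livers and 1841630 in WT livers.

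Copies that fell did so steeply. Rps26-ps1 had a fitted mean of 63.6 in 4N livers and 4538 in WT livers, and its log2 fold change was -6.16 (SE 0.40, adjusted p = 3.6e-50) per the authors' deposited table. Rps2-ps10 had 242 in 4N livers and 16042 in WT livers, and Rps2-ps13 had 331 in 4N livers and 19590 in WT livers. Their log2 fold changes were -6.05 (SE 0.42) and -5.89 (SE 0.38) per the authors' deposited table. All 3 rows were more than 50-fold lower in the 4N group than in the WT group. Rps24-ps3 stood at -5.55 (SE 0.31), Rpl15-ps6 at -4.40 (SE 0.32), Rpl17-ps5 at -4.24 (SE 0.26) and Rps19-ps6 at -4.06 (SE 0.37) per the authors' deposited table. Rpl15-ps2 (-3.94, SE 0.42), Rpl34-ps1 (-3.28, SE 0.38), Rps19-ps2 (-3.06, SE 0.56) and Rpl29-ps2 (-3.41, SE 0.87) were the other falls, per the authors' deposited table.

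Of the 9 copies that rose, all but Rpl17-ps3 had a mean under 1000. Rps2-ps6 had a fitted mean of 1002 in 4N livers and 37.4 in WT livers, and stood at 4.74 on the log2 scale (SE 1.16, adjusted p = 0.00064) per the authors' deposited table. Rps15a-ps5 (2.60, SE 0.65) and Rps15a-ps7 (1.73, SE 0.40) rose per the authors' deposited table beside a parent, Rps15a, at -0.36 (SE 0.25). Rpl21-ps15 (2.36, SE 0.40) and Rpl21-ps8 (2.12, SE 0.73) rose with their parent Rpl21 per the authors' deposited table. Rpl17-ps3 was the smallest rise at 0.67 (SE 0.25, adjusted p = 0.048) per the authors' deposited table, and Rplp0-ps1, with a mean of 7.42 normalized counts, had no reads in the WT group. Of the 5 copies with the highest means, Rps2-ps13 fell and 4 did not pass: Rpl3-ps1 (-0.22, SE 0.34), Rps7-ps3 (-0.45, SE 0.31), Rps18-ps5 (-0.35, SE 0.28) and Rps12-ps3 (0.01, SE 0.22) per the authors' deposited table.

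Each of the 151 copies was then set against its parent, 48 parents in all. The 95% interval of the difference between parent and copy, taking both standard errors as independent, left out 0 in 31 pairs, with the parent above the copy in 26 and below it in 5. Rps2 stood above Rps2-ps10 by 9.52 log2 units (interval 8.58 to 10.45) and above Rps2-ps13 by 9.35 (8.48 to 10.22). Rpl34 stood above Rpl34-ps1 by 7.13 (6.23 to 8.03), and Rps26 above Rps26-ps1 by 6.25 (5.33 to 7.17). The pairs differed in how the parent behaved. Both genes were called in 8 pairs, in opposite directions in 5 of them, and the copy alone was called in 12. The intervals are descriptive, since a parent and its copies can share reads, which also makes the value of every single row of such a family uncertain. Copies of the same parent also share its value, so the pairs are not separate observations. In 22 of the 151 pairs the parent was a called gene.

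Families with 3 or more copies, of which there were 24, were looked at with copy and parent side by side. In 6 of the 24, those of Rps2, Rpl17, Rps19, Rpl15, Rps15a and Rpl21, the most abundant copy was called. The background is 15.3% called over all genes and 22.2% over genes averaging 1000 or more. Rpl17, near the exit of the tunnel, had a fitted mean of 25948 in 4N livers and 22735 in WT livers, while Rpl17-ps5 had 434 in 4N livers and 8207 in WT livers. Rps19 had 21622 in 4N livers and 14896 in WT livers, and Rps19-ps6 had 286 in 4N livers and 4766 in WT livers. Rpl15, a core protein of the large subunit, had 22892 in 4N livers and 17849 in WT livers, and Rpl15-ps6 had 72.1 in 4N livers and 1523 in WT livers. In these 3 families the copy was lower in the 4N group and the parent did not pass.

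In the other 18 families neither the most abundant copy nor, except for Rpl35a, the parent was called. Rpl31, with 9 copies, stood at 0.15 (SE 0.20) and Rpl31-ps8 at -0.22 (SE 0.26), per the authors' deposited table. Rps12, with 8 copies, had 23096 in 4N livers and 20496 in WT livers, and Rps12-ps3, identical in coding sequence, had 8345 in 4N livers and 8284 in WT livers. Rps6, the target of S6 kinase, was at -0.18 (SE 0.21) and Rps6-ps4 at -0.44 (SE 0.29), per the authors' deposited table. Rpl10, which joins the large subunit late in its assembly, was at 0.06 (SE 0.18) and Rpl10-ps3 at 0.18 (SE 0.40), per the authors' deposited table. Rpl9-ps6 (-0.56, SE 0.25) and Rpl30-ps10 (-1.07, SE 0.45) were lower in the fit but did not pass, with Rpl9 at -0.28 (SE 0.22) and Rpl30 at -0.37 (SE 0.28), per the authors' deposited table. Rps27a, a ubiquitin fusion, was at 0.48 (SE 0.29) and Rps27a-ps3 at -0.30 (SE 0.32), per the authors' deposited table. The other families of this size had differences whose intervals likewise reached 0 for their most abundant copy, apart from Rpl35a, which stood above Rpl35a-ps2 by 1.48 (0.73 to 2.23).

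Retrogene copies without the suffix included the steepest fall of the set, that of Rps3a2. GENCODE M21 annotates Rps3a2, Rps3a3, Rpl6l and Rpl32l as processed pseudogenes and Rpl37rt as a transcribed processed pseudogene. Rps3a2 had a fitted mean of 140 in 4N livers and 10922 in WT livers, and Rps3a3 had 159 in 4N livers and 10722 in WT livers. Their log2 fold changes were -6.28 (SE 0.28, adjusted p = 5.5e-107) and -6.08 (SE 0.28, adjusted p = 3.0e-98) per the authors' deposited table. Both rows were alike in their level in each group. Rps3a1, the parent, had 57104 in 4N livers and 39102 in WT livers and did not pass (0.55, SE 0.23, adjusted p = 0.093, per the authors' deposited table). Rps27rt, whose coding sequence is identical to that of Rps27, was at -0.73 (SE 0.30, adjusted p = 0.080), Rpl37rt at -0.13 (SE 0.36), Rpl6l at 0.09 (SE 0.33) and Rpl32l at 0.15 (SE 0.89) per the authors' deposited table. Rps23rg1 rose by 1.68 (SE 0.43, adjusted p = 0.0013) beside a parent, Rps23, at 0.30 (SE 0.27) per the authors' deposited table.

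Paralogs of ribosomal protein genes mostly did not pass. Rpl22l1, the paralog that replaces Rpl22, was at 0.40 (SE 0.22, adjusted p = 0.25), and Rpl22 at 0.14 (SE 0.24), per the authors' deposited table. Rps27l, a p53 target, was at -0.36 (SE 0.25), Rps4l at 0.24 (SE 0.24) and Rpl7l1 at 0.06 (SE 0.20), with Rpl7 at -0.14 (SE 0.24), per the authors' deposited table. GENCODE M21 annotates Rps4l as a transcribed processed pseudogene. Rpl36al (-0.51, SE 0.71, with Rpl36a at 0.12, SE 0.27) and the muscle paralog Rpl3l (-0.57, SE 1.72, with Rpl3 at 0.31, SE 0.23) averaged under 100 normalized counts per the authors' deposited table, and their intervals spanned 0 widely. Rpl39l, the testis paralog of Rpl39, was called higher with a mean of 8.36 and no reads in the WT group, while Rpl39 was at -0.29 (SE 0.38) per the authors' deposited table. In all, 2 of the 14 paralogs and retrogenes rose and 2 fell, against 15.3% of all genes called.

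The calls of members were also set beside the background under other call rules. The authors' rule called 30 of 241 members (12.4%), against 15.3% of all genes. At an adjusted p under 0.01, 26 of 241 members (10.8%) were called, against 10.3% of all genes, and 22 of 241 (9.13%) when the null was a 1.5-fold change, against 4.82% of all genes. With a minimum mean of 50, 27 of 168 members (16.1%) were called, against 22% of the genes left. Recentring on genes averaging 10000 or more called 30 members (12.4%) and recentring on the main ribosomal protein genes 31 (12.9%), against 15.6% of all genes under each. Without genes read in 1 group, 28 of 238 members (11.8%) were called, against 14.7% of the genes left. Recentring on secreted plasma proteins moved the count furthest, to 82 members (34%), with 69 higher and 13 lower, against 33.1% of all genes. When the Wald statistic was read against a t distribution with 3 degrees of freedom, 0 members and 0% of all genes passed.

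Transcripts of a parent and its copies were next summed within each group, to compare whole families. The sum took in every -ps copy and each retrogene or other listed gene whose transcript covered at least 90% of the parent's coding sequence at 95% identity or more. There were 220 such other genes, 213 of them annotated as pseudogenes, and 73 of the 76 families held at least 1 copy. The families ranged less widely than the parents. The SD of the log2 ratio over the 76 genes was 0.85 for the parents alone, 0.58 with the members added and 0.36 with all copies. The quartiles moved less, from -0.13 and 0.25 for the parents to -0.15 and 0.16 with all copies, so the narrowing lay mostly in the extreme genes. Ratios beyond 2-fold numbered 5 for parents and 2 for sums. These sums carry no standard error, and no test was made of them.

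In the Rpl34 family the parent rose and the main copy fell by amounts that offset each other, with a sum of 13700 in 4N livers and 13445 in WT livers, a ratio of 1.02. For the parent alone the ratio was 14.4. The Rps2 family, with 22 copies, summed to 60631 in 4N livers and 41655 in WT livers, a ratio of 1.46, which is 0.54 on the log2 scale against 3.46 for Rps2 alone. The Rps3a family summed to 57644 in 4N livers and 61091 in WT livers, a ratio of 0.944. In the Rps18 family the sum was 19793 in 4N livers and 17057 in WT livers, a ratio of 1.16, and Rps18 itself made up 37.2% of the mean.

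The Rplp0 family ran the other way. Its copy Gm8730, at 98.7% identity, had a fitted mean of 41258 in 4N livers and 10960 in WT livers and rose by 1.91 on the log2 scale (SE 0.20, adjusted p = 2.5e-19) per the authors' deposited table. Gm9625, at 97.4% identity, had 5069 in 4N livers and 29.0 in WT livers, a log2 fold change of 7.45 (SE 0.31) per the authors' deposited table. Here the copies rose and the parent fell, and the sum was 85016 in 4N livers and 79985 in WT livers, a log2 ratio of 0.09 in place of -0.84 for Rplp0 alone. The families of Rpl29 (ratio 4.04), Rpl21 (2.33) and Rpl35a (1.67) were still more than 1.5-fold higher in 4N livers after summing. Rpl29 summed to 9681 in 4N livers and 2394 in WT livers over 12 copies, and Rpl21 to 13984 in 4N livers and 5999 in WT livers over 27 copies. They were the 3 families beyond a 1.5-fold ratio in either direction.

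**Figure D3:**
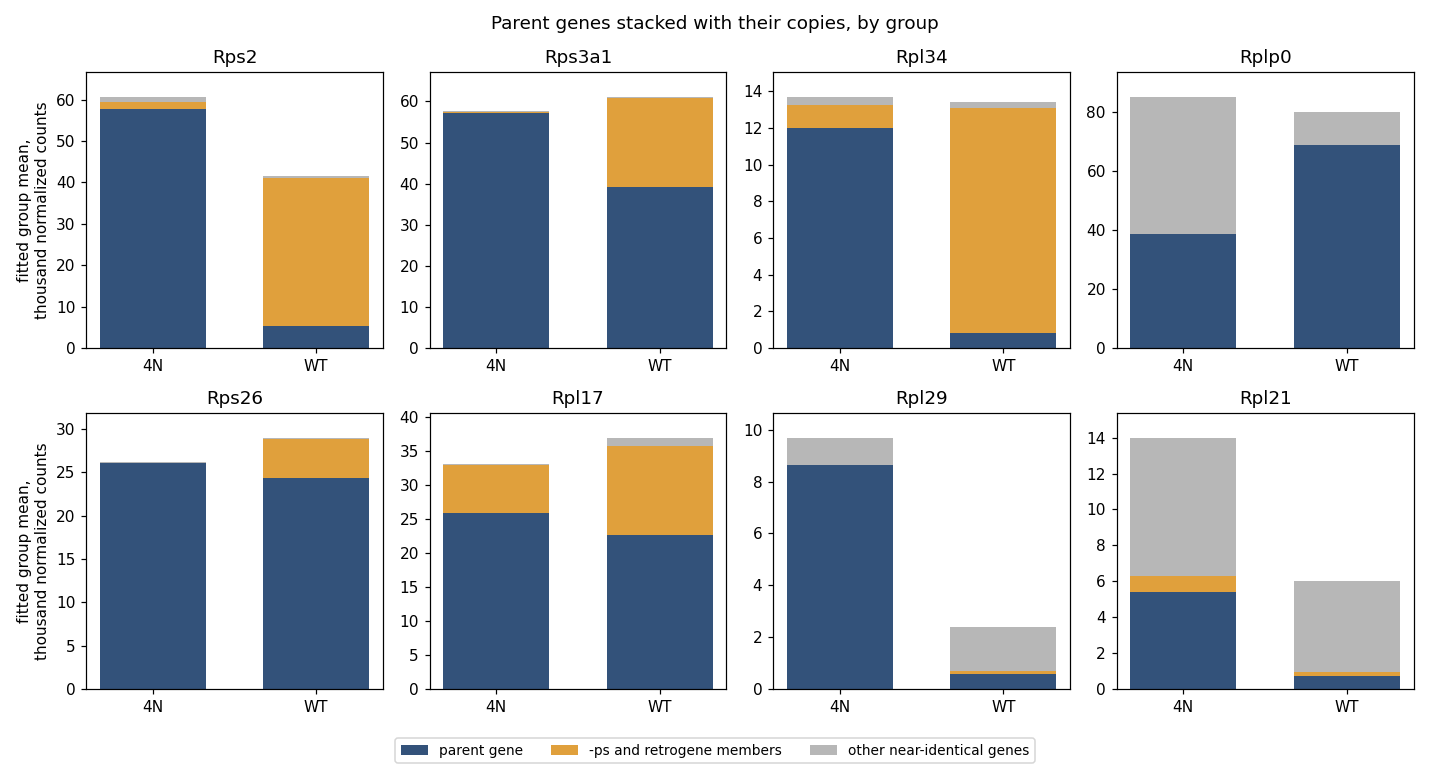
Fitted group means in normalized counts, divided by 1000, for 8 families, 4N beside WT, each bar stacking the parent gene, its -ps and retrogene members and other near-identical genes. In Rps2, Rps3a1 and Rpl34 the members take a large part of the WT bar and little of the 4N bar, and in Rplp0 other near-identical genes take more of the 4N bar.

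**Figure D4:**
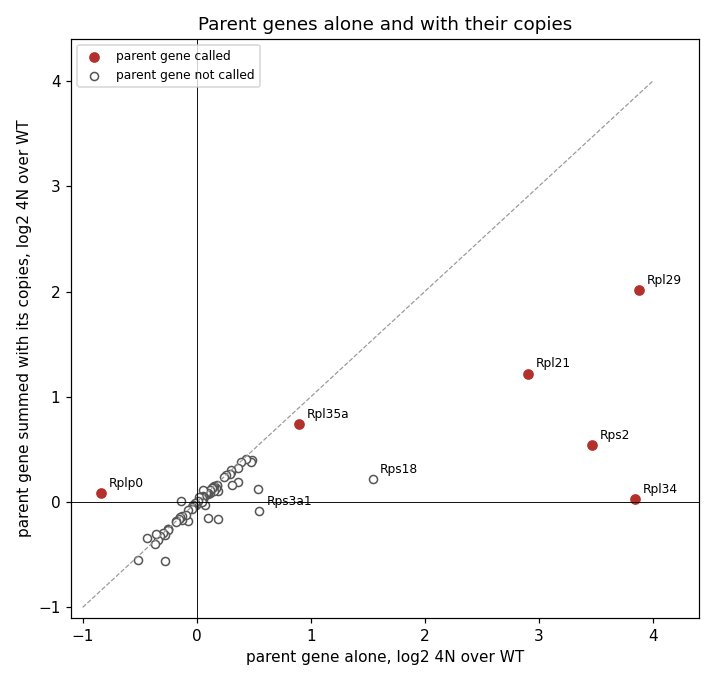
Log2 ratio of 4N over WT for each of the 76 parent genes alone and summed with its copies, with the line of equality dashed. Rpl34 moves from 3.85 to 0.03, Rps2 from 3.46 to 0.54 and Rplp0 from -0.84 to 0.09, while Rpl29 moves from 3.88 to 2.02 and Rpl21 from 2.91 to 1.22.

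The called copies that could be aligned were not identical to their parents, and were as close in sequence as the aligned copies in general. Of the 151 copies, 139 had a GENCODE M21 transcript and 136 aligned to the parent's coding sequence, with a median identity of 98.7%. Despite the suffix, Rps12-ps3, Rpl10-ps3, Rpl9-ps6 and Rpl36a-ps1 are annotated there as protein-coding. The 19 called copies that aligned ran from 94.1% to 99.6% identity, also with a median of 98.7%. The called copy Rpl15-ps6 had no GENCODE M21 transcript and was not compared. Of the 13 copies identical to their parent over the aligned coding sequence, 0 were called, 8 of 33 between 99% and 100% were called, and 7 of 20 between 97% and 99%, all at a mean of at least 50, where 22% of all genes were called. Log2 fold changes of the identical copies ran from -0.81 to 0.48. The copies shared libraries, and can share reads, with their parents and with each other, so these counts describe them and are not a test. Rps2-ps10 differed from Rps2 by 5 substitutions over the coding sequence, Rps2-ps13 by 7, Rpl34-ps1 and Rps26-ps1 each by 2 from their parents, Rps24-ps3 by 4 and Rps3a2 by 4. Others differed more: Rps3a3 by 9 substitutions from Rps3a1, and Gm8730 by 12 and Gm9625 by 24 from Rplp0.

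**Figure D5:**
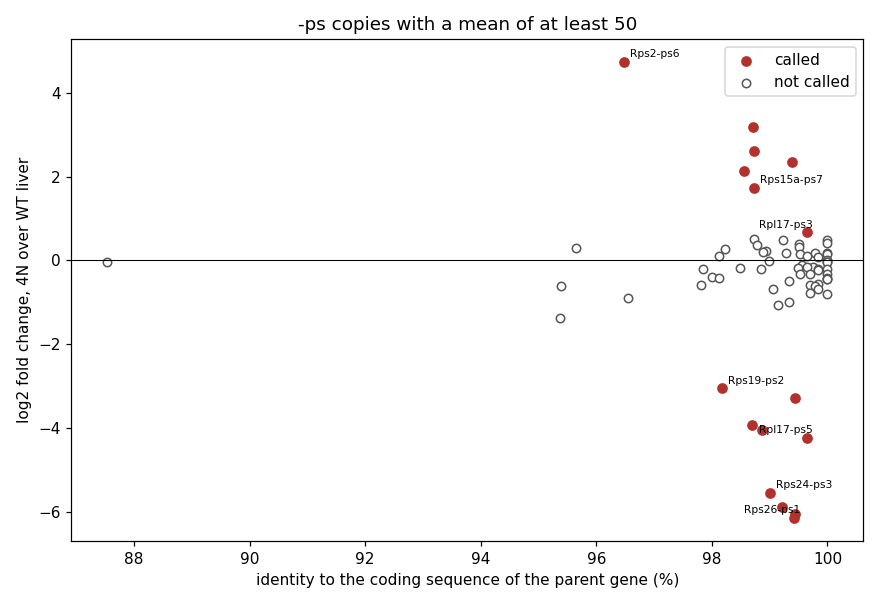
Identity to the coding sequence of the parent, in percent, against the log2 fold change of 4N over WT liver, for -ps copies that cover at least 90% of it and have a mean of at least 50. Called copies, filled, lie between 96.5% and 99.6% identity, and the 13 identical copies all lie within 0.81 of 0.

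Some parent genes had fewer reads than their copies or than the other ribosomal proteins. Per kilobase of coding sequence, the median mean level of the main genes was 48277 normalized counts, and Rpl24 had 540, Rps10 had 593 and Rpl13a had 1975. Rps10 made up 5.15% of its family's reads, and its copy Rps10-ps2 (-0.01, SE 0.24, per the authors' deposited table) held most of the rest. Rps18-ps5 also had a higher mean than its parent. Rpl24 (-0.28, SE 0.39), Rps10 (-0.14, SE 0.33) and Rpl13a (0.18, SE 0.30) did not pass per the authors' deposited table.

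Ribosomal proteins just outside the symbol rule were also looked up. Rpsa, the laminin receptor protein of the small subunit, was at -0.97 (SE 0.78) per the authors' deposited table. The ubiquitin-like fusion Fau (-0.23, SE 0.30) and the scaffold Rack1 (0.01, SE 0.21) did not pass per the authors' deposited table, nor did Rpsa. Among the 11 symbols left out, the kinases Rps6ka6 (1.06, SE 0.29) and Rps6ka1 (0.86, SE 0.27) rose per the authors' deposited table.

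Other parts of the translation machinery held few calls. Of 18 translation factors and related genes with terminal oligopyrimidine mRNAs, which share growth control with the ribosomal proteins, 1 rose and 0 fell, with a median of -0.10. That gene was Pabpc1, the poly(A)-binding protein, at 1.00 (SE 0.19, adjusted p = 4.2e-06) per the authors' deposited table. Of 46 ribosome biogenesis factors, 0 rose and 1 fell, with a median of -0.27, the export adaptor Nmd3 at -0.80 (SE 0.26, adjusted p = 0.017) per the authors' deposited table. Of 10 snoRNA host genes, 0 rose and Snhg5 fell (-0.68, SE 0.24, per the authors' deposited table). Of 14 genes of RNA polymerase I, which makes the ribosomal RNA precursor, 0 were called by the authors' Wald test, and 2 had an unadjusted p under 0.05. With a t reference 0 passed, but it called 0 of all 23022 genes and so says nothing of this list. The median of the 14 was -0.16, with Ubtf at 0.22 (SE 0.20) and Polr1a at 0.08 (SE 0.22) per the authors' deposited table. Of 14 growth and ribosomal stress regulators, Myc alone was called, at 0.91 (SE 0.25, adjusted p = 0.0038) per the authors' deposited table. The background for these counts is again 15.3% called over all genes, and 22.2% over genes averaging 1000 or more, as most genes of these lists did.

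The tissue label was matched by hepatocyte markers, which made up 20.2% of the summed means of all genes, with albumin at a mean of 6200280 normalized counts. All 20 were listed, but every gene listed had a mean of at least 3.53, so being listed does not bear on the label. The fitted means of the hepatocyte markers summed to about 16013500 in 4N livers and 15384000 in WT livers, with 1 of 20 higher and 7 lower. Erythroid markers rose in 26 of 27 listed genes, and their fitted means summed to 4056940 in 4N livers and 1267210 in WT livers. Macrophage markers were higher in 4 of 12 and lower in 1, with sums of 84932 in 4N livers and 61744 in WT livers. Of 10 neutrophil markers 0 were called by the authors' Wald test, and 0 had an unadjusted p under 0.05. Lymphoid markers were higher in 3 of 9, stellate markers higher in 3 and lower in 1 of 8 and endothelial markers lower in 1 of 7. Of 6 megakaryocyte markers 0 were called by the authors' Wald test, and 2 had an unadjusted p under 0.05. With a t reference 0 neutrophil and 0 megakaryocyte markers passed, but it called 0 of all 23022 genes and so says nothing of these lists. The background is 15.3% called over all genes and 22.2% over genes averaging 1000 or more. In bulk tissue a change in the number of cells of a type and in RNA per cell cannot be told apart. Whether such changes had a part in the ribosomal protein values was not tested.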

How the data were processed

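RNA of 5 mouse livers was sequenced from poly(A)-selected libraries, 3 in the 4N and 2 in the WT group, and GRCm39 is the build that the submitters' processing notes name. Aligner, counting tool and the treatment of reads that match several places are not given in the sources consulted. The table analysed is a comparison that the authors deposited. The signal it lists is a gene's mean normalized count over all libraries, its log2 fold changes and standard errors are on the log2 scale, its Wald statistic is a score, and its p-values and adjusted p-values match the columns of DESeq2, per the file headers. Recomputed, the adjusted p was the Benjamini-Hochberg value over 23022 genes, with 0 missing.

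Positive fold changes were read as higher in 4N from genes empty in 1 group, 606 of them positive and 247 negative: standard errors of 12 negative ones fell below 1.44, the limit for 2 empty libraries, so 3 were empty there. Group means were solved from mean and fold change with 3 and 2 libraries. Copies were aligned to parents with blastn 2.17.0 on GENCODE M21 transcripts (GRCm38), matched by symbol and used for sequence, chromosome and gene type only. Named genes were all paralogs with parents, up to 10 called members per direction by adjusted p, the 5 highest means, the 5 most extreme changes per direction at a mean of at least 1000, and up to 4 called genes per other list. Rpl29-ps2 and the Gm copies were named after their values were seen, and of families with 3 or more copies those not named are given by counts. Some genes that this rule takes in are not reported here. The members and lists were chosen with earlier results of these data known. The call rules and the solving of group means were tested on simulated data. The work used matplotlib 3.10.9, scipy 1.17.1, pandas 2.3.3, numpy 2.4.6 and Python 3.11.15.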

Additional observations from a re-analysis of the deposited data

How the results depend on the processing

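Alternatives covered the minimum mean (50), the null (1.5-fold), the threshold (0.01), the reference of the Wald statistic (t, 3 degrees of freedom), the scaling (recentred on abundant genes, on secreted plasma proteins or on the main ribosomal protein genes) and genes with all reads in 1 group. Of the 30 called members, 26 kept their call at a minimum mean of 50, 22 against a 1.5-fold change, 26 at the stricter threshold, 29 under each recentring and 28 without genes read in 1 group. With the t reference 0 kept it, when 9 of 90 members without -ps and 17 of 151 -ps copies had an unadjusted p under 0.05. That reference called 0 of all 23022 genes, so it cannot tell members from other genes. For members without -ps, 10 calls became 6 against a 1.5-fold change, 0 with the t reference and 56 (54 higher, 2 lower) after recentring on secreted plasma proteins. For -ps copies, 20 calls became 0 with the t reference and 26 (15 higher, 11 lower) after that recentring, against 9 higher and 11 lower as deposited. Over the other translation lists, 4 calls became 0 against a 1.5-fold change (1 at an unadjusted p under 0.05), 2 at the stricter threshold, 0 with the t reference (2 unadjusted) and 36 after recentring on secreted plasma proteins. The lists of translation factors, biogenesis factors, snoRNA hosts, RNA polymerase I and regulators held 18, 46, 10, 14 and 14 genes. Of all genes, 15.3% were called as deposited, 4.82% against a 1.5-fold change, 10.3% at the stricter threshold and 33.1% after that recentring. Parent and copy pairs whose interval left out 0 numbered 31, against 20 at a minimum mean of 50 and 18 with the t reference. Summing with near-identical copies, added after the data were seen, turned Rplp0 from below to above 0, at 0.088 (log2). Among parents that were not called, the log2 ratio also crossed 0 for Rps3a1 (0.546 to -0.084), Rpl17 (0.191 to -0.160), Rps26 (0.097 to -0.148), Rps24 (0.071 to -0.029) and Rps10 (-0.142 to 0.010). The cause of these shifts was not tested, except that the minimum mean leaves 81 pairs. No replicate could be left out and no paired analysis was possible because no single-library values entered the data analysed here.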
